A study of Bos taurus with 4 samples.

Results

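This account describes the AP-1 and early growth response genes of bovine chromaffin cells 6 h after addition of PACAP (pituitary adenylate cyclase-activating polypeptide). The clones were taken by symbol: every library clone annotated as Fos, Fosb, Fosl2, Jun, Junb, Jund, Egr1, Nr4a1, Nr4a2 or Atf3 is described. Of these 10 symbols 9 were held, by 16 of 35960 library clones, and no clone used here carried the symbol Fosb. Fosl2 and Jund had 4 clones each, Egr1 had 2, and Fos, Jun, Junb, Atf3, Nr4a1 and Nr4a2 had 1 each. All 16 passed the filter on low signal, which 35109 clones passed in all.

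Chromaffin cells are the catecholamine-secreting cells of the adrenal medulla, although the labels give the tissue as brain. The treated RNA came from cells kept with 100 ng/ml PACAP for 6 h at 37 °C and carried Cy5. The control RNA carried Cy3, and the labels name no vehicle for it. Treated and control RNA of the same repeat shared 1 array of mouse cDNA clones, and there were 4 biological repeats. The dyes were not swapped, so the treatment and a dye preference of a clone cannot be told apart. Bovine RNA was read by mouse sequences, and the labels do not say whether the repeats came from separate animals, so p-values measure only the spread between these arrays.

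Fos, Fosl2 (Fra-2), Jun, Junb and Jund encode basic leucine zipper proteins that pair into the AP-1 transcription factor. Atf3 is a related zipper protein that can pair with Jun proteins, Egr1 is a zinc finger factor, and Nr4a1 (Nur77) and Nr4a2 (Nurr1) are orphan nuclear receptors. Most are immediate early genes: PACAP acts through a G protein-coupled receptor that raises cyclic AMP, and the kinases downstream phosphorylate factors already bound at such promoters. Their transcripts are typically short-lived, and Jund is the member best known for steady expression.

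Across the array, library spots exceeded 2 SD of their local background in 91.9 to 98.4% of cases in the PACAP channel and in 46.0 to 98.3% in the control channel. The median log2 ratio of PACAP over control before normalisation was 0.58, 0.54, 0.07 and -1.17 on repeats 1 to 4, so the signals of a spot do not compare directly between channels. Repeat 4 stood apart: across clones, its log2 ratios had a mean Pearson r of -0.051 with the other arrays, against 0.304 among repeats 1 to 3. Of 16 chromaffin markers 9 were measured, and Th and Chga exceeded background in both channels on all 4 arrays. Markers of every other cell type examined also gave signal, including Mog of oligodendrocytes and Hbb-b1 of red cells, so detection on this array did not separate cell types.

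No AP-1, Egr1 or Nr4a clone passed the test of PACAP-treated against control cells. Of the 16 clones 6 had a mean log2(PACAP / control) above 0 and 10 below it, and all 16 means lay within 2-fold. The largest was 0.40 ± 0.53 (SD, n = 4) for Fos and the lowest -0.57 ± 0.43 for the Fosl2 clone AI837761. The median over the 16 was -0.03, and that over all clones tested was -0.01. No member passed at an adjusted p of 0.05 (limma, Benjamini-Hochberg over 35109 clones), where the share called over the whole array was 0%. At an unadjusted p of 0.05 limma called 0 of the 16, whereas 10.4% of all clones were called. The lowest adjusted p among the members was 0.483. In 2 clones, the Fosl2 clone AI837761 and the Jund clone AI836074, the mean was larger in size than the SD between arrays. An exact sign-flip test on 4 arrays cannot give a p below 0.125.

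**Figure D1:**
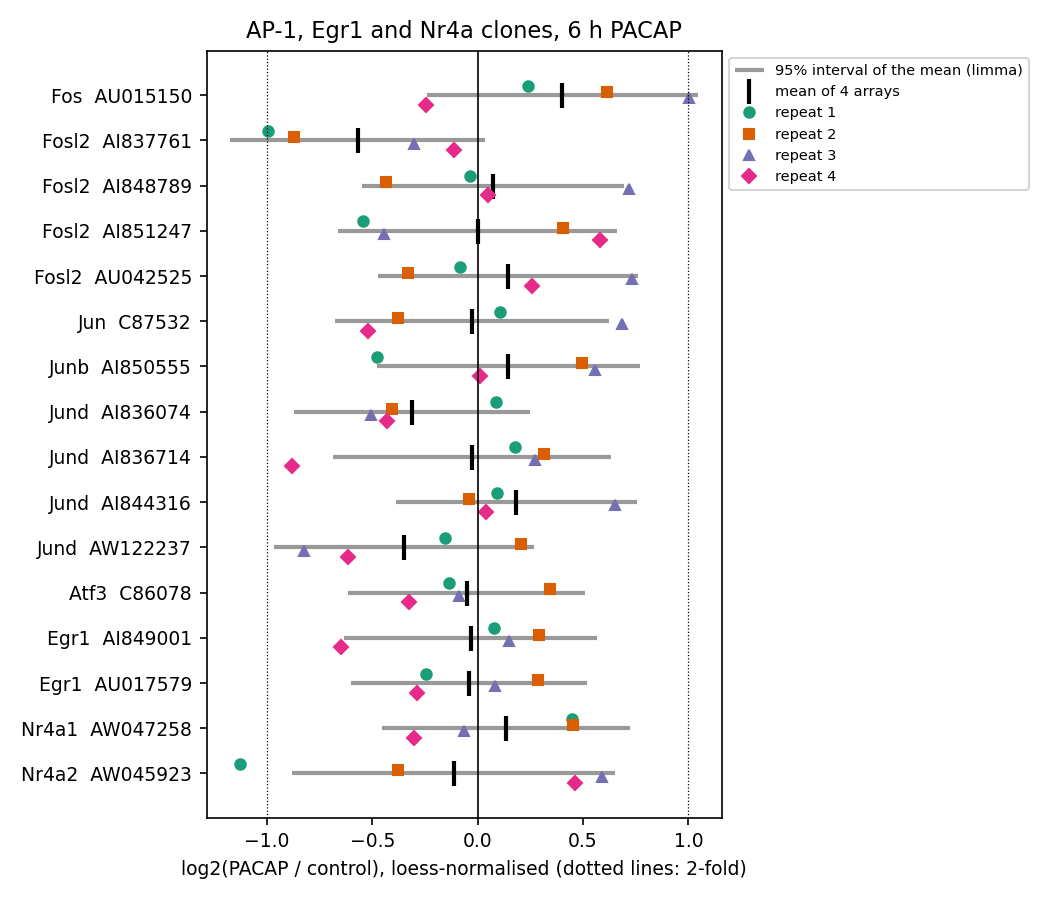
Loess-normalised log2(PACAP / control) of the 16 member clones (horizontal axis) on repeats 1 to 4 (coloured symbols), with the mean (black tick) and limma's 95% interval (grey bar); dotted lines mark 2-fold. The symbols of 15 clones fall on both sides of 0, and those of the Fosl2 clone AI837761 all lie below it.

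The intervals show how large a difference these arrays leave room for. With limma's 95% intervals, only Fos reached past 2-fold higher, at 2.06-fold, and only the Fosl2 clone AI837761 past 2-fold lower, at 0.443-fold. The other clones' intervals lay inside 2-fold in either direction. In limma the variance of each clone is moderated toward that of all clones. The interval of a scattered clone such as Nr4a2 (SD 0.80) is therefore narrower than its 4 arrays alone would give. The bounds cover this moderated spread between arrays and not a dye preference or the weaker binding of bovine sequence. They widened under some settings: with median centring in place of loess, 5 of the 16 intervals passed 2-fold higher and 3 passed 2-fold lower. Without repeat 1 they numbered 4 and 3.

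Fos, the AP-1 partner that cannot pair with itself, had the highest mean. Its PACAP signal was 278.2, 262.1, 115.5 and 266.5 intensity units on repeats 1 to 4, against 195.6, 152.0, 81.1 and 714.3 in the control channel. The control signal was 2.14, 2.20 and 1.28 background SD on repeats 1 to 3, near the limit of 2, and far above it on repeat 4. After loess the log2 ratios were 0.24, 0.61, 1.00 and -0.25. Repeats 1 to 3 were thus above 0 and repeat 4 below it. The mean of 0.40 had a 95% interval of -0.24 to 1.05 and an adjusted p of 0.591 in limma (exact sign-flip p = 0.375, 2-sided). The mean was 0.62 without repeat 4 (adjusted p = 0.397) and 0.20 without repeat 3. Under median centring, which omits the loess, it was 0.09. Among all clones tested the Fos mean stood at the 85.0th percentile.

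By the distance between log2 ratios over the 4 arrays, the genes nearest to Fos among 8200 with signal in both channels on at least 3 arrays were Ipo5, C86350 and Il17d. Their distances were 0.090, 0.152 and 0.167 log2 units. Ipo5, a nuclear import receptor, had 0.23, 0.58, 1.03 and -0.17 on repeats 1 to 4. Il17d, a cytokine of the interleukin-17 family, had 0.19, 0.58, 1.15 and -0.20. C86350, whose clone title gives only a weak similarity to a zinc finger protein, had 0.27, 0.60, 1.13 and -0.32. How often such distances arise for other genes was not tested, and the match is a description of these arrays only.

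The 4 clones of Fosl2 were all below 0 on repeat 1 and differed in sign on each of repeats 2 to 4. AI837761, which is titled fos-like antigen 2, was the only member clone with the same sign on every array, at -0.996, -0.87, -0.30 and -0.11 on repeats 1 to 4. Its PACAP signal was 1187.9, 524.9, 248.7 and 593.0, against 1234.8, 457.7, 222.6 and 1477.7 in the control channel, at least 4.36 background SD in either channel. Being lower on all 4 arrays applied to 1 of 16 member clones and to 8.71% of all clones with 4 values. Being higher on all 4 applied to 0 of 16, against 10.1% of all clones. The mean of -0.57 had a limma p of 0.0615 before adjustment, an adjusted p of 0.483 and an exact sign-flip p of 0.125. Under print-tip loess, fitted within each of the 48 print blocks, it was -0.22, and under median centring -0.26. Its unadjusted limma p was below 0.05 in other settings of the scanner values: 0.0402 with normexp and an offset of 50 (mean -0.56), 0.0391 with an offset of 50 alone (-0.53) and 0.0462 with spots under 60 pixels left out (-0.58). It was then the only member of 16 at that level, which 11% of all clones reached in each of these settings, and its adjusted p was 0.438 to 0.451.

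The other Fosl2 clones had means near 0. AU042525, also above background in both channels on every array, had -0.09, -0.33, 0.73 and 0.26, with a mean of 0.14 ± 0.46. AI848789 had -0.04, -0.43, 0.72 and 0.05, with a mean of 0.07 ± 0.48, and its control signal on repeat 3 was 0.92 background SD. Its clone title names B-cell CLL/lymphoma 7C and so contradicts the Fosl2 symbol. AI851247 had -0.54, 0.41, -0.45 and 0.58, and its control signal exceeded 2 background SD on 1 of 4 arrays. The gap between the highest and lowest Fosl2 clone mean was 0.71, more than the median SD of 0.47 that these clones showed between arrays. Averaged over its 4 clones Fosl2 had -0.42, -0.31, 0.17 and 0.19. The lower mean of AI837761 was not seen in the other clones with this symbol, and whether the clones differ was not tested. AU042525 and AI851247 are titled only as ESTs (expressed sequence tags), so AI837761 is the only clone of the symbol whose title names Fosl2.

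**Figure D2:**
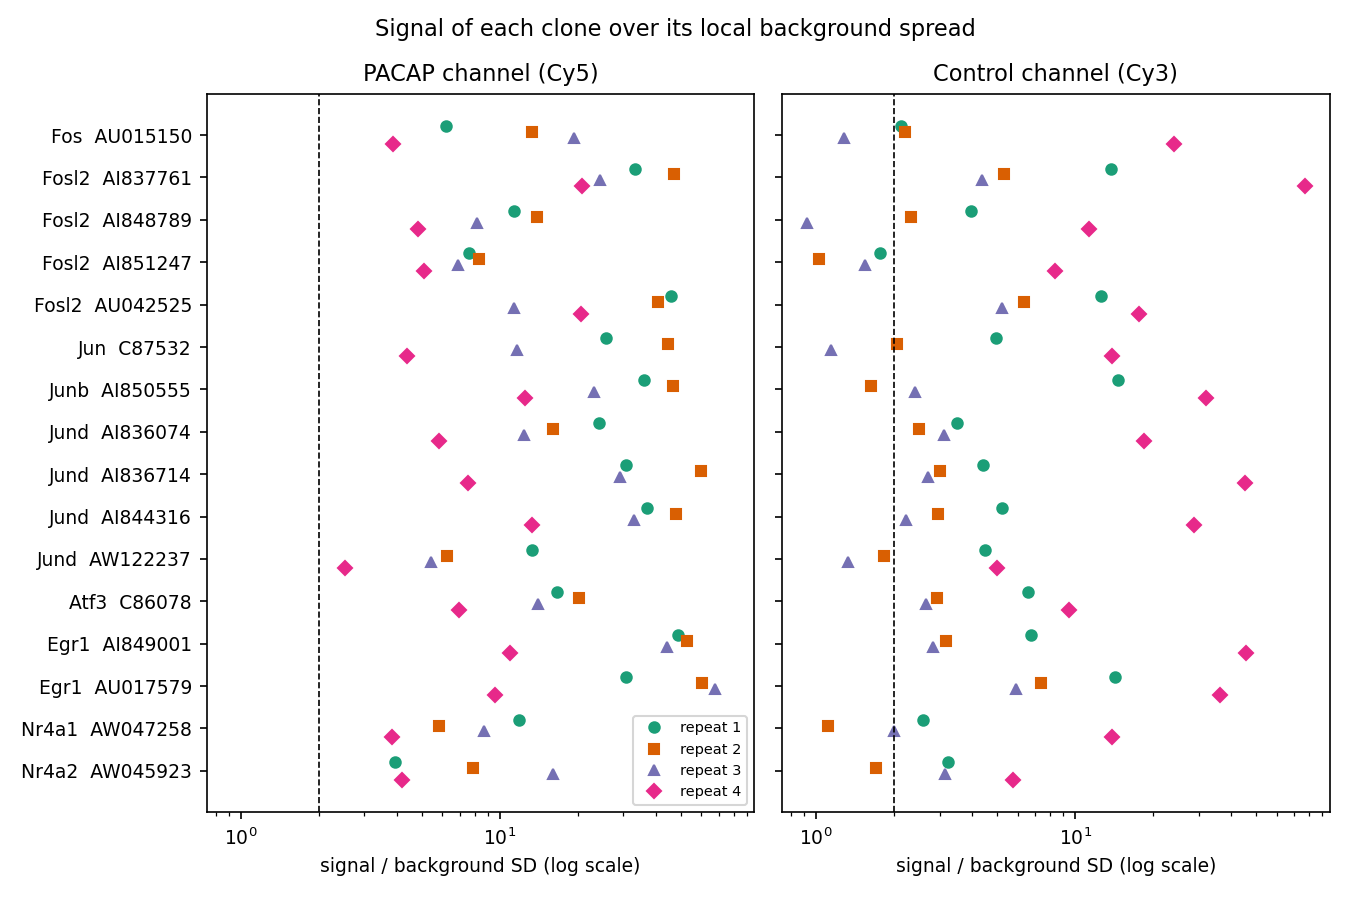
Signal of each member clone divided by the SD of its local background (logarithmic axis) in the PACAP channel (left) and the control channel (right) on repeats 1 to 4; the dashed line marks 2 SD. All 16 clones pass the line on all 4 arrays in the PACAP channel, against 8 of 16 in the control channel, and repeat 4 has the highest control value for every clone shown.

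Jun, the prototype AP-1 subunit and able to pair with itself, showed no steady direction. Its PACAP signal was 874.2, 451.5, 100.3 and 223.6, against 488.5, 327.0, 88.1 and 721.0 in the control channel. The log2 ratios were 0.11, -0.38, 0.68 and -0.52, with a mean of -0.03 ± 0.55 and a limma interval of -0.68 to 0.62. Repeats 1 and 3 lay above 0 and repeats 2 and 4 below. On repeat 3, which had the highest ratio, the Jun control signal was 1.14 background SD, under the limit of 2. Junb, a subunit that often tempers Jun activity, had PACAP signals of 965.8, 713.6, 308.6 and 665.5, against 758.3, 261.9, 159.1 and 1516.6 in the control channel. Its log2 ratios were -0.48, 0.49, 0.55 and 0.01, with a mean of 0.15 ± 0.48 (adjusted p = 0.849 in limma). Only repeat 1 was below 0, and on repeat 2 the control signal was 1.62 background SD.

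For Jund, 3 of 4 clones had a mean below 0. These 3 are titled only as ESTs, so their symbol rests on the platform annotation alone. AI844316, the clone titled as Jun proto-oncogene related gene d1, had 0.09, -0.04, 0.65 and 0.04, with a mean of 0.18 ± 0.32. AI836714 had 0.18, 0.31, 0.27 and -0.88, and its mean of -0.03 became 0.26 without repeat 4. AI836074 had 0.09, -0.40, -0.51 and -0.43, with a mean of -0.31 ± 0.27. AW122237 had -0.16, 0.20, -0.83 and -0.61, with a mean of -0.35 ± 0.46, and its control signal passed 2 background SD on 2 of 4 arrays. Without repeat 3 the mean of AI844316 was 0.0281 and that of AW122237 -0.19, and without repeat 2 that of AW122237 was -0.53. The clones disagreed most on repeat 3, where they spanned 1.48 log2 units. Averaged over the clones Jund had 0.05, 0.02, -0.10 and -0.47, and the adjusted p of single clones was 0.624 or more in limma.

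Atf3, a stress-responsive repressor or activator depending on its partner, had PACAP signals of 662.7, 364.7, 123.5 and 261.4, against 458.2, 201.8, 149.3 and 741.4 in the control channel. Its log2 ratios were -0.14, 0.34, -0.09 and -0.33, with a mean of -0.05 ± 0.28 and an interval of -0.61 to 0.51. Its SD between arrays stood at the 14.1th percentile of all clones. Repeat 2 was the only array above 0.

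The 2 Egr1 clones had nearly equal means and differed on single arrays. AI849001 had PACAP signals of 1226.9, 1323.4, 440.9 and 648.7, against 649.8, 406.4, 237.5 and 2318.7 in the control channel. Its log2 ratios were 0.08, 0.29, 0.15 and -0.65, with a mean of -0.03 ± 0.42. AU017579 had PACAP signals of 1289.0, 1023.6, 529.1 and 472.6, against 824.1, 353.6, 274.9 and 1330.9 in the control channel. Its log2 ratios were -0.24, 0.29, 0.08 and -0.29, with a mean of -0.04 ± 0.27. The difference between the clones, AI849001 minus AU017579, was 0.32, 0.0029, 0.07 and -0.36 on repeats 1 to 4, averaging 0.0064 ± 0.28. On repeat 1 the clones had opposite signs. Both exceeded 2 background SD in the control channel on every array. Both had their lowest value on repeat 4, and without it the means were 0.17 and 0.04. Limma's intervals for its clones ran from -0.64 to 0.57 and from -0.60 to 0.52.

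The nuclear receptor clones were scattered around 0, and that of Nr4a2 is titled only as ESTs. Nr4a1 had PACAP signals of 236.5, 128.6, 64.4 and 126.6, against 148.9, 92.3, 90.9 and 339.0 in the control channel. The control signal passed 2 background SD on repeats 1 and 4 and not on repeats 2 and 3. Its log2 ratios were 0.45, 0.45, -0.06 and -0.30, with a mean of 0.13 ± 0.38, so repeats 1 and 2 stood above 0 and repeats 3 and 4 below. Nr4a2 had PACAP signals of 153.9, 104.3, 125.4 and 145.5, against 286.2, 141.4, 108.0 and 234.8 in the control channel, which passed 2 background SD on 3 of 4 arrays. Its log2 ratios of -1.13, -0.38, 0.59 and 0.46 were the most scattered of all members (mean -0.11 ± 0.80). The quality score deposited for its spot was 0 on repeats 1 and 2, 1 on repeat 3 and 0.2 on repeat 4. The score was also 0 for Fos on repeat 1 and for Nr4a1 on repeat 2. It was 0 for the Fosl2 clone AI851247 on repeats 1 to 3 and for the Jund clone AW122237 on repeats 2 to 4. Of 64 member values only that of Nr4a2 on repeat 1 and that of Fos on repeat 3 exceeded 1 in size, against 14.8% of the values of all clones measured on 4 arrays.

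Ordered by their mean, the clones ran from Fos through the Jund clone AI844316, Junb, the Fosl2 clone AU042525 and Nr4a1 down to the Jund clones AI836074 and AW122237 and the Fosl2 clone AI837761. Each step between neighbours was smaller than the SD of either. The distance from the top to the bottom of that order, Fos minus AI837761, was 1.23, 1.48, 1.31 and -0.13 log2 units on repeats 1 to 4. It has no test, because the pair was picked as the extremes.

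By array, the median log2 ratio of the 16 clones was -0.06, 0.24, 0.21 and -0.27 on repeats 1 to 4, while that of all clones lay between -0.0035 and 0.0002 after loess. On repeat 4, 10 of 16 were below 0, against 9, 7 and 6 on repeats 1, 2 and 3. Without repeat 4 the median of the 16 means was 0.09.

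Some clones carry a title that names one of these genes, while the annotation gives them another symbol or none. They are outside the symbol rule, were picked after the values of the members were known, and support nothing about them. AI846927, titled FBJ osteosarcoma oncogene B (the Fosb product is a Fos-like AP-1 subunit), had 0.26, 0.30, 1.14 and 0.09, with a mean of 0.45 ± 0.47 (adjusted p = 0.552 in limma). C87457 and AW558078, with the same title but the symbol Hipk3, had means of 0.00067 ± 0.25 and -0.08 ± 0.52. AI854636, titled early growth response 1, had 0.14, 0.88, 0.40 and 0.03 (mean 0.36 ± 0.38), higher on 4 of 4 arrays. AI844538, titled as the Jund gene, had a mean of -0.34 ± 0.32. BE992376, titled as Nr4a2 but annotated Kif3a, had -0.34, -1.35, -1.89 and -0.18, lower on 4 of 4 arrays. Its mean was -0.94 ± 0.82, where the median spot covered 52.5 pixels. In limma its p was 0.0233 before adjustment and 0.454 after it. No title settled a direction for its gene: none of these clones passed limma's threshold.

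No gene of 3 related lists passed the test either. Of 40 AP-1 partners, CREB and ATF factors and upstream kinases, 28 were measured; 0 rose, 0 fell and 28 did not pass (limma, adjusted over all clones). At an unadjusted p of 0.05 limma called 1 of the 28 (3.57%, against 8.87% of all named genes), 14 means were above 0 and 14 below, and the list median was 0.03, as was that of all 11740 named genes. The gene called was Crem, the cyclic AMP-inducible modulator of CREB sites, with 1.66, 1.77, 1.29 and 1.02 on repeats 1 to 4. Its mean was 1.44 ± 0.35, with an unadjusted limma p of 0.00042. The adjusted limma p of 0.454 was the lowest of any clone tested, a value shared with other clones. The control signal of this Crem clone exceeded background on 3 of 4 arrays. The other Crem clone, AI846359, had 1.55, 2.14, 1.78 and 1.10 (mean 1.64 ± 0.43). Fosl1 (Fra-1), the closest relative of Fosl2, had 0.34, 1.00, 0.65 and 0.21 (mean 0.55 ± 0.35, adjusted p = 0.482). Srf, which binds the serum response element of Fos, had 0.57, 0.36, 0.71 and 0.37 (mean 0.50 ± 0.17, adjusted p = 0.486). All 3 were above 0 on every array, as were 11.7% of all named genes with 4 values, against 3 of 27 (11.1%) in the list. On the lower side stood the kinase Mapk10 (JNK3) at -0.61 ± 0.87, the Jun coactivator Cops5 at -0.48 ± 0.58 and Elk1, the Srf partner at the Fos promoter, at -0.43 ± 0.61, each with repeats on both sides of 0. Of 4 Mapk10 clones 2 were above 0, and the title of the clone used does not name it.

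**Figure D3:**
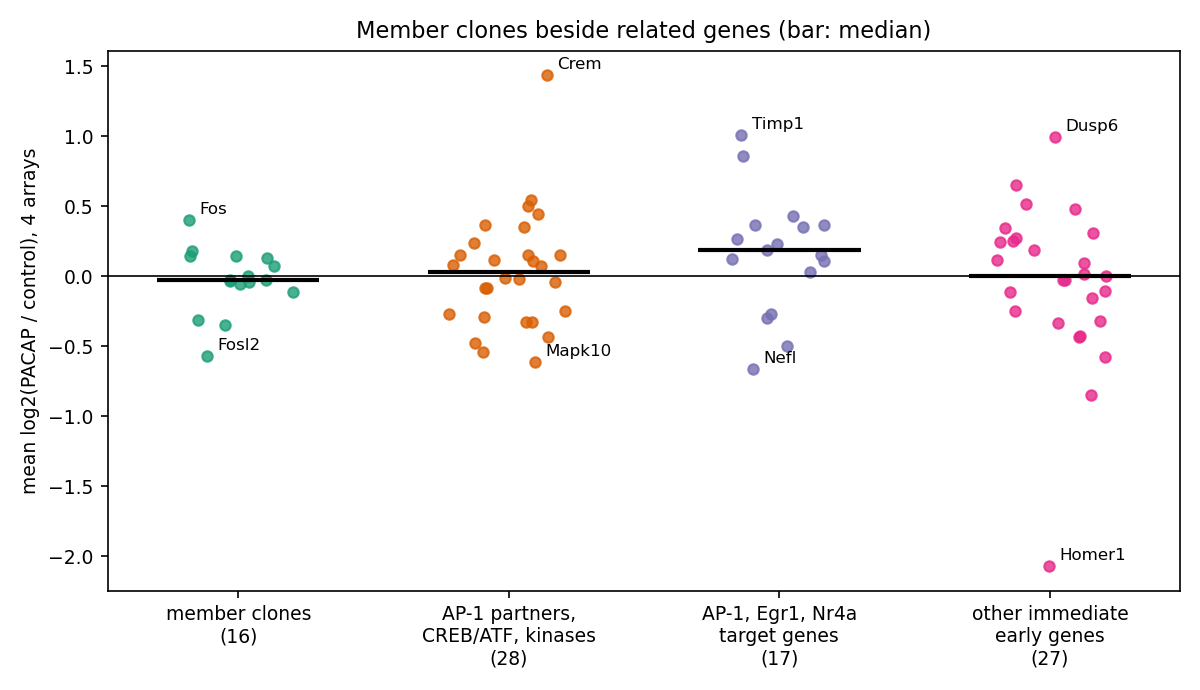
Mean log2(PACAP / control) over 4 arrays (vertical axis) of the 16 member clones and of the genes of 3 related lists, each gene by its brightest clone; bars are medians, and the highest and lowest point of each column is named. The members lie between -0.57 and 0.40, whereas Crem, Timp1 and Dusp6 reach 1.44, 1.01 and 1.00 and Homer1 lies at -2.07.

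Of 35 other immediate early and stimulus response genes 27 were measured; 0 rose, 0 fell and 27 did not pass, and the median was 0.0038. At an unadjusted p of 0.05 limma called 3 of the 27 (11.1%, against the same 8.87%). The ERK phosphatases Dusp6 and Dusp5 had 1.00 ± 0.50 and 0.65 ± 0.27, higher on 4 of 4 arrays (control above background on 2 arrays for Dusp6), and Homer1, a postsynaptic scaffold with an activity-induced short form, had -2.07 ± 1.70 on 3 arrays, with a median spot of 12 pixels. Arc, a synaptic immediate early gene, had 0.48 ± 0.75, the matrix protein gene Ccn2 -0.84 ± 1.10 and Ier5 -0.57 ± 0.59. Of the near relatives of the members, Egr3 had 0.27 ± 0.50, Egr4 -0.43 ± 1.09 and Nr4a3 (Nor-1) 0.34 ± 0.43. The control channel of Nr4a3 was above background on a single array. Fosl1, described above, had 0.55 ± 0.35, higher than the mean of any member clone. Its signal exceeded background in both channels on 4 of 4 arrays. None of these relatives passed at an adjusted p of 0.05 in limma.

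Of 24 genes with known AP-1, Egr1 or Nr4a sites 17 were measured; 0 rose, 0 fell and 17 did not pass, with 13 means above 0, 4 below and a median of 0.19. Over all named genes 6206 means were above 0 and 5534 below. At an unadjusted p of 0.05 limma called 3 of the 17 (17.6%), against 8.87% of all named genes. Timp1, an inhibitor of metalloproteinases, had 1.03, 0.94, 1.34 and 0.73 (mean 1.01 ± 0.25), and Penk, the enkephalin precursor, had 0.81, 1.16, 1.08 and 0.38 (mean 0.86 ± 0.35). Nefl, the light neurofilament, had -0.66 ± 0.13, with 1 of its 5 clones above 0. Odc1, the first enzyme of polyamine synthesis, had 0.43 ± 0.44, Chga -0.50 ± 0.14 and Ccnd1, cyclin D1, -0.30 ± 0.23 (control above background on 1 array). These lists were named with earlier results of these arrays known, so their counts are descriptions.

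In the deposited series table background was subtracted from scanner means that were taken here as already free of it, which was not checked for Cy3. This subtraction set the control signal of 13 of the 16 member clones to the floor of 1 on at least 2 arrays. It set the PACAP signal of 2 clones to that floor on 1 array. In that table as deposited, the Egr1 clones had means of 5.30 and 0.77 log2 units, although they differed by 0.006 in the scanner values. AI849001 was at the floor in the control channel on 2 arrays and AU017579 on none. The 4 Fosl2 clones had deposited means from 0.32 to 3.86 and the 4 Jund clones from 0.92 to 5.68. After median centring of the deposited values, 3 of 16 member clones had an unadjusted p below 0.05 in limma, against 13.1% of all clones, and all 3 were below 0 (the Fosl2 clone AI837761, the Egr1 clone AU017579 and the Jund clone AW122237), and the lowest adjusted p of a member was 0.244 in limma. The intervals then passed 2-fold higher for 12 clones and 2-fold lower for 13. Without centring 8 of 16 members had an unadjusted p below 0.05, against 42.1% of all clones. AI837761 and AU017579 were not at the floor on any array.

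**Figure D4:**
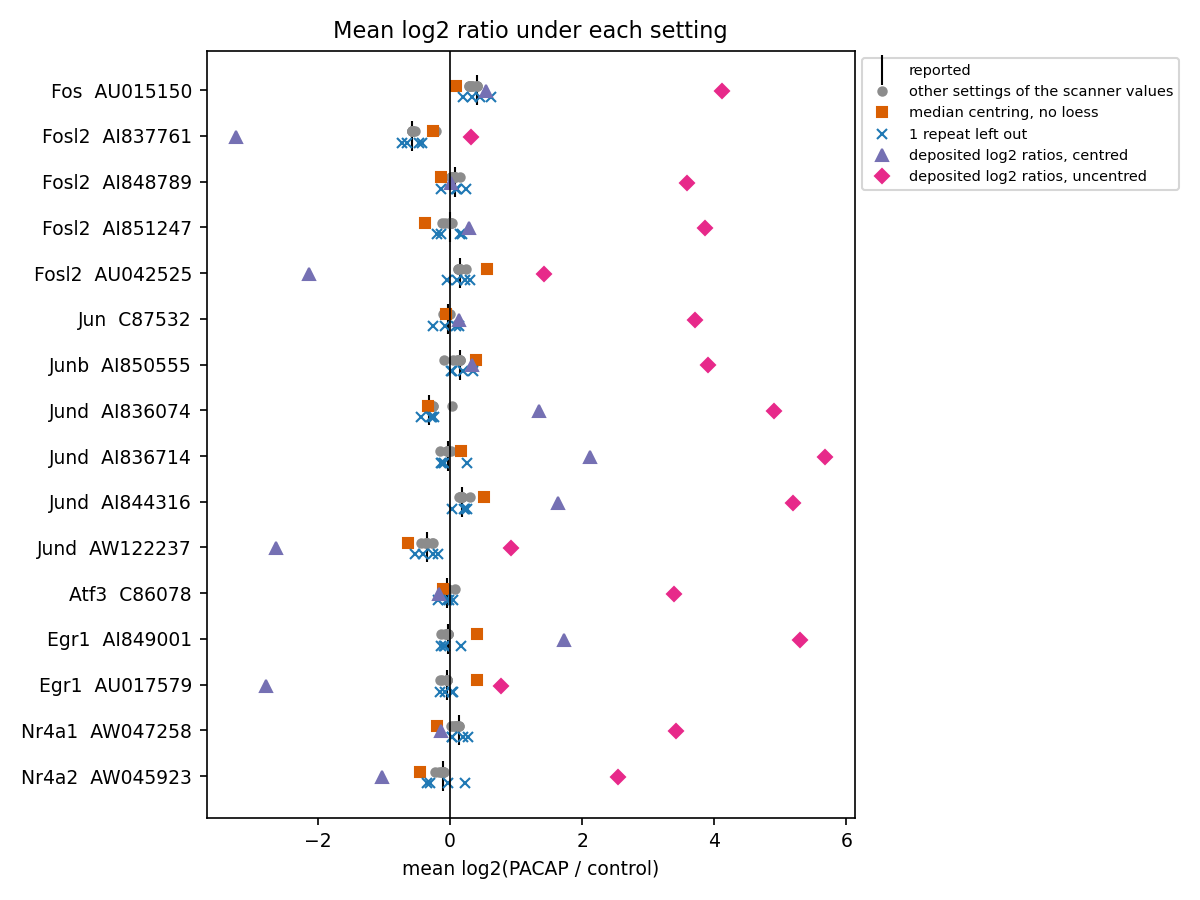
Mean log2(PACAP / control) of each member clone (horizontal axis) under the reported analysis (black tick) and 15 alternatives (symbols). Settings of the scanner values stay within 1 log2 unit of 0, whereas the deposited ratios spread from -3.24 to 2.11 when centred and from 0.32 to 5.68 as deposited.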

How the data were processed

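The 4 scanner tables give, per the file headers, spot intensity, local background and its SD for Cy5 and Cy3, with a ratio, a quality score and an area; no label names the image program. Background was taken as already removed from the deposited mean intensity, since total Cy5 intensity over mean plus background gave 115 to 130 pixels a spot. The median spot areas were 108 to 116 pixels, and repeat 4 differed most, with 130 against 108. Cy3 was not checked in this way. The deposited ratio is Cy5 over Cy3 divided by 1 calibration factor per array. The deposited series table holds log2 ratios after a second background subtraction, not centred (medians 4.67, 5.51, 4.25 and -0.375 on repeats 1 to 4), as found by recomputing them.

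Intensities were floored at 1, log2(Cy5 / Cy3) was normalised by global loess and tested against 0 with limma 3.58.1 (R 4.3.3; lmFit, eBayes, intercept only, 2-sided, Benjamini-Hochberg). The filter kept clones brighter than 2 background SD in either channel on 3 or more arrays; spots of a clone were averaged and spots of no area left out. Symbols came from the platform annotation, joined by plate position and kept where recomputed and deposited values differed by a median under 0.1 log2 units; 22477 library spots had 1 symbol, 1111 several and 12508 none. A gene of a list is represented by its brightest clone. The rule names all member clones, the 3 genes of smallest p per direction in each list, and the 3 genes nearest to Fos; relatives of the members (Egr3, Egr4, Nr4a3) were added. Members and lists were chosen with earlier results of these data known. Array number limits the precision. The estimation of ratios was tried on simulated data with independent noise, with no requirement on the number of clones called. Tables were handled in pandas 2.3.3 and numpy 2.4.6, and exact tests in numpy. The t quantiles of the intervals came from scipy 1.17.1 and plots from matplotlib 3.10.9, under Python 3.11.15.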

Additional observations from a re-analysis of the deposited data

Results flagged for a closer look

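The 4 array values of 18 quantities were searched for a lone distant array, and 3 quantities had one; chance alone gives this in about 1 of 20 groups. For the Jund clone AI836714 it was repeat 4, with a log2 ratio of -0.88 beside 0.18, 0.31 and 0.27 on repeats 1 to 3. For the Jund clone AI836074 it was repeat 1, at 0.0892 beside -0.40, -0.51 and -0.43. In the PACAP channel, 91.9% of library spots passed 2 background SD on repeat 4, and 97.6 to 98.4% on repeats 1 to 3.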

How the results depend on the processing

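Over 15 alternatives the 16 member clones gave 237 values. In 197 the sign was kept and in 40 it turned, and none passed at an adjusted p of 0.05 in limma; the Fos mean and that of the Jund clone AI844316 stayed above 0 throughout. The number of clones called over the whole array was 0 except with the deposited ratios, median centred, where it was 371, and among other immediate early genes 1 was called there (Homer1), against 0 otherwise; with 1 repeat left out these counts were 0 throughout. Lowest adjusted p over all clones ranged from 1.36e-05 (deposited, centred) to 0.886 (without repeat 3). The unadjusted count of 3646 became 6098 under median centring, 912 with trend and robust moderation and 2345 with both channels required. It was 2581, 2022, 1618 and 4960 without repeats 1, 2, 3 and 4, and 14698 with the deposited ratios uncentred. Without repeat 4 the lowest adjusted p over all clones was 0.0936 in limma. No paired analysis was possible because the arrays form 1 group and each ratio already pairs treated with control RNA of 1 repeat. The causes of the turns below were not tested, save that uncentred ratios hold each array's own offset.

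Median centring turned Egr1 (AI849001 0.41, AU017579 0.40), Fosl2 AI848789 (-0.14), Jund AI836714 (0.16) and Nr4a1 (-0.20). Print-tip loess turned Atf3 (0.0727), Junb (-0.0857) and Jund AI836074 (0.0323) and AI836714 (0.0133). Fosl2 AI851247 turned with scaling between arrays (0.0319) and an offset of 50 (0.0141). The deposited ratios, centred, turned Egr1 AI849001 (1.73), Fosl2 AI851247 (0.29) and AU042525 (-2.14), Jun (0.14), Jund AI836074 (1.35) and AI836714 (2.11) and Nr4a1 (-0.14). Uncentred, they turned Atf3 (3.40), Egr1 (5.30 and 0.77), Fosl2 AI837761 (0.32) and AI851247 (3.86), Jun (3.71), Jund AI836074 (4.91), AI836714 (5.68) and AW122237 (0.92) and Nr4a2 (2.54).

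With 1 repeat left out, means ranged from -0.18 to 0.0392 for Atf3, -0.14 to 0.17 and -0.15 to 0.0418 for Egr1 (AI849001, AU017579), 0.20 to 0.62 for Fos, and -0.26 to 0.14 for Jun. For Fosl2 they ranged from -0.72 to -0.43 (AI837761), -0.14 to 0.24 (AI848789), -0.19 to 0.18 (AI851247) and -0.0523 to 0.30 (AU042525). They ranged from 0.0096 to 0.35 for Junb, -0.14 to 0.26 for Jund AI836714, -0.45 to -0.25 for AI836074, 0.0281 to 0.26 for AI844316, -0.53 to -0.19 for AW122237, 0.0279 to 0.28 for Nr4a1 and -0.35 to 0.23 for Nr4a2.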
